A study of Homo sapiens with 6 samples.

Results

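The transcripts of the KLHL gene family and of CUL3 were measured by mRNA sequencing in NGP cells, an established human neuroblastoma line that carries amplified MYCN, treated for 12 h either with 60 nM OTSSP167 or with an equal volume of the solvent DMSO. OTSSP167 is a small-molecule kinase inhibitor that was first described against MELK and that the series title ties to CAMKV, a pseudokinase of the CaM kinase family. The members are the 37 rows of the deposited gene table whose symbol is KLHL followed by a number, together with CUL3, which makes 38 of 19863 rows. Library totals ran between 36401828 and 57460375 counts in the 3 OTSSP167 libraries and between 46230392 and 50810126 counts in the 3 DMSO libraries. All 6 libraries come from the same line, with 1 dose and 1 time point, and no label says that replicates are separate cultures. The p-values below therefore describe the spread between these libraries, which may be technical.

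KLHL proteins are substrate adaptors of a class of ubiquitin ligases. Their BTB domain binds the cullin CUL3, a BACK domain follows, and a propeller of kelch repeats at the other end holds the protein to be marked. CUL3 in turn carries the RING protein RBX1, which brings in the ubiquitin-conjugating enzyme, and the ligase is switched on when the small protein NEDD8 is joined to the cullin. Several family members act in mitosis, others act on the WNK kinases of ion transport, on vesicle coats or on metabolic enzymes, and a few are restricted to muscle, testis or lymphocytes.

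The stretches upstream of 4 members are shown because these are the members that passed the test of a change beyond 1.5-fold, defined below, and have a single start in the RefSeq promoter table. KLHL35 and KLHL11 were higher with OTSSP167, and KLHL25 and KLHL22 were lower. Each line gives the 250 bases before the RefSeq start on GRCh38.p14, 5′ to 3′ on the minus strand, which is the strand of all 4 genes. For KLHL11, KLHL25 and KLHL22 this window spans the GENCODE start of the gene (41865431, 85795030 and 20495883). By that annotation, part of each of these lines lies inside the gene. The KLHL22 line also runs into MED15, which starts 29 bp from KLHL22 on the opposite strand. The KLHL35 window lies further upstream and does not reach the GENCODE start (75430629), which sets the KLHL35 position and exon length used below. The windows are chr11:75433204-75433453 for KLHL35, chr17:41865424-41865673 for KLHL11, chr15:85794926-85795175 for KLHL25 and chr22:20495796-20496045 for KLHL22. Capitals mark a tandem repeat in the KLHL11 line and the E-box letters CACGTG in the KLHL22 line.
KLHL35: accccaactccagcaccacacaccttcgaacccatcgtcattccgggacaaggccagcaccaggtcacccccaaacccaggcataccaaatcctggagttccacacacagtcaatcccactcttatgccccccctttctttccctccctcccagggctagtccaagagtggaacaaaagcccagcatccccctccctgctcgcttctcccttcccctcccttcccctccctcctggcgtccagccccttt
KLHL11: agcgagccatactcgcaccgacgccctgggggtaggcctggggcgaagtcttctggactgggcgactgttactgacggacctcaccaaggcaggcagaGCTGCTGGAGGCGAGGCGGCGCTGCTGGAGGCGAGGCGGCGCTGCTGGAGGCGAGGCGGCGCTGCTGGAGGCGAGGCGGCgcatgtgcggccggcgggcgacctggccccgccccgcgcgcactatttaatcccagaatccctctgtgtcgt
KLHL25: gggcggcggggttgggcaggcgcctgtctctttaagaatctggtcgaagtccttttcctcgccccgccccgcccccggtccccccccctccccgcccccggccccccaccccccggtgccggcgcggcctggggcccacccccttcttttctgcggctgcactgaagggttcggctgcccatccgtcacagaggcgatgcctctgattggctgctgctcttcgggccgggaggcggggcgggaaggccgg
KLHL22: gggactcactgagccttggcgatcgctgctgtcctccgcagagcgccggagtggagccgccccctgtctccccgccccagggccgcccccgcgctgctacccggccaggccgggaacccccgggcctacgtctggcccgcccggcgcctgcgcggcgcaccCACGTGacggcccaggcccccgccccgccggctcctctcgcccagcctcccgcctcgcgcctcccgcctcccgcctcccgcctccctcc
The KLHL11 stretch holds 4 copies of a 20-base unit in a row. The KLHL22 stretch holds 2 copies of a 14-base unit in a row, which are not marked. The KLHL22 stretch is 80.4% G or C with 32 CpG pairs, and the KLHL35 stretch is 60.0% G or C with 5 CpG pairs, beside medians of 58.0% and 11 over all 35116 windows of the table. Motifs of 4 kinds were searched on both strands of the windows of 34 members that the table holds. The palindromes CACGTG, which MYC family proteins bind, and TGACGTCA, which CREB proteins bind, occurred for 3 and 0 members, against 6.34 and 1.65% of all windows. The NRF2 core TGACNNNGC occurred for 7 members and the TATA box TATAAA for 6, against 10.9 and 10.7% of all windows. Some of the 34 members have several windows, so their counts and the shares of all windows are not on an equal footing. None of these motifs contains another. A match of letters is a description and not a binding site.

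Levels below are CPM (counts scaled to library size) scaled between libraries by edgeR's TMM factors, listed for replicates 1, 2 and 3, and with SD over n = 3 where a mean is given. CPM are shares of a library and do not show how much RNA a cell held, and more or fewer cells in a given state cannot be told apart from more or less RNA per cell. Some values are followed by the span of adjusted p over all settings, which means the fit reported and every alternative except the fold thresholds. A gene is said to rise or fall where edgeR's quasi-likelihood test passed an adjusted p of 0.05 (Benjamini-Hochberg over the 14402 tested genes).

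Of the 38 members, 31 had enough counts to be tested: 5 rose with OTSSP167, 5 fell and 21 did not pass. The 10 that changed are 32.3% of the tested members, where 46.1% of all tested genes changed. The members that rose were 16.1%, against 23.8% of all genes, and those that fell were 16.1%, against 22.3%. Tested against a change of 1.5-fold, 3 members rose (KLHL35, KLHL33 and KLHL11) and 2 fell (KLHL25 and KLHL22), while 19.6% of all genes passed, 10.6% higher and 9.03% lower. KLHL11 passed this test only narrowly (edgeR's adjusted p against 1.5-fold = 0.0493). KLHL33 had to differ to be tested at all, as given below, and without it 4 members rose, 2 of them beyond 1.5-fold. The median log2 fold change of the tested members was 0.05, and it stayed at 0.05 with KLHL33, the 1 tested member at 0 in every DMSO library, set to its lower bound; it was 0.01 over all tested genes. The groups did not overlap in 16 tested members, 9 higher and 7 lower, where 60.4% of all tested genes did not overlap. The summed level of the KLHL genes was 815.4, 870.2 and 780.7 CPM in the OTSSP167 libraries, against 795.5, 880.3 and 892 CPM in the DMSO libraries, and these ranges overlapped.

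**Figure D1:**
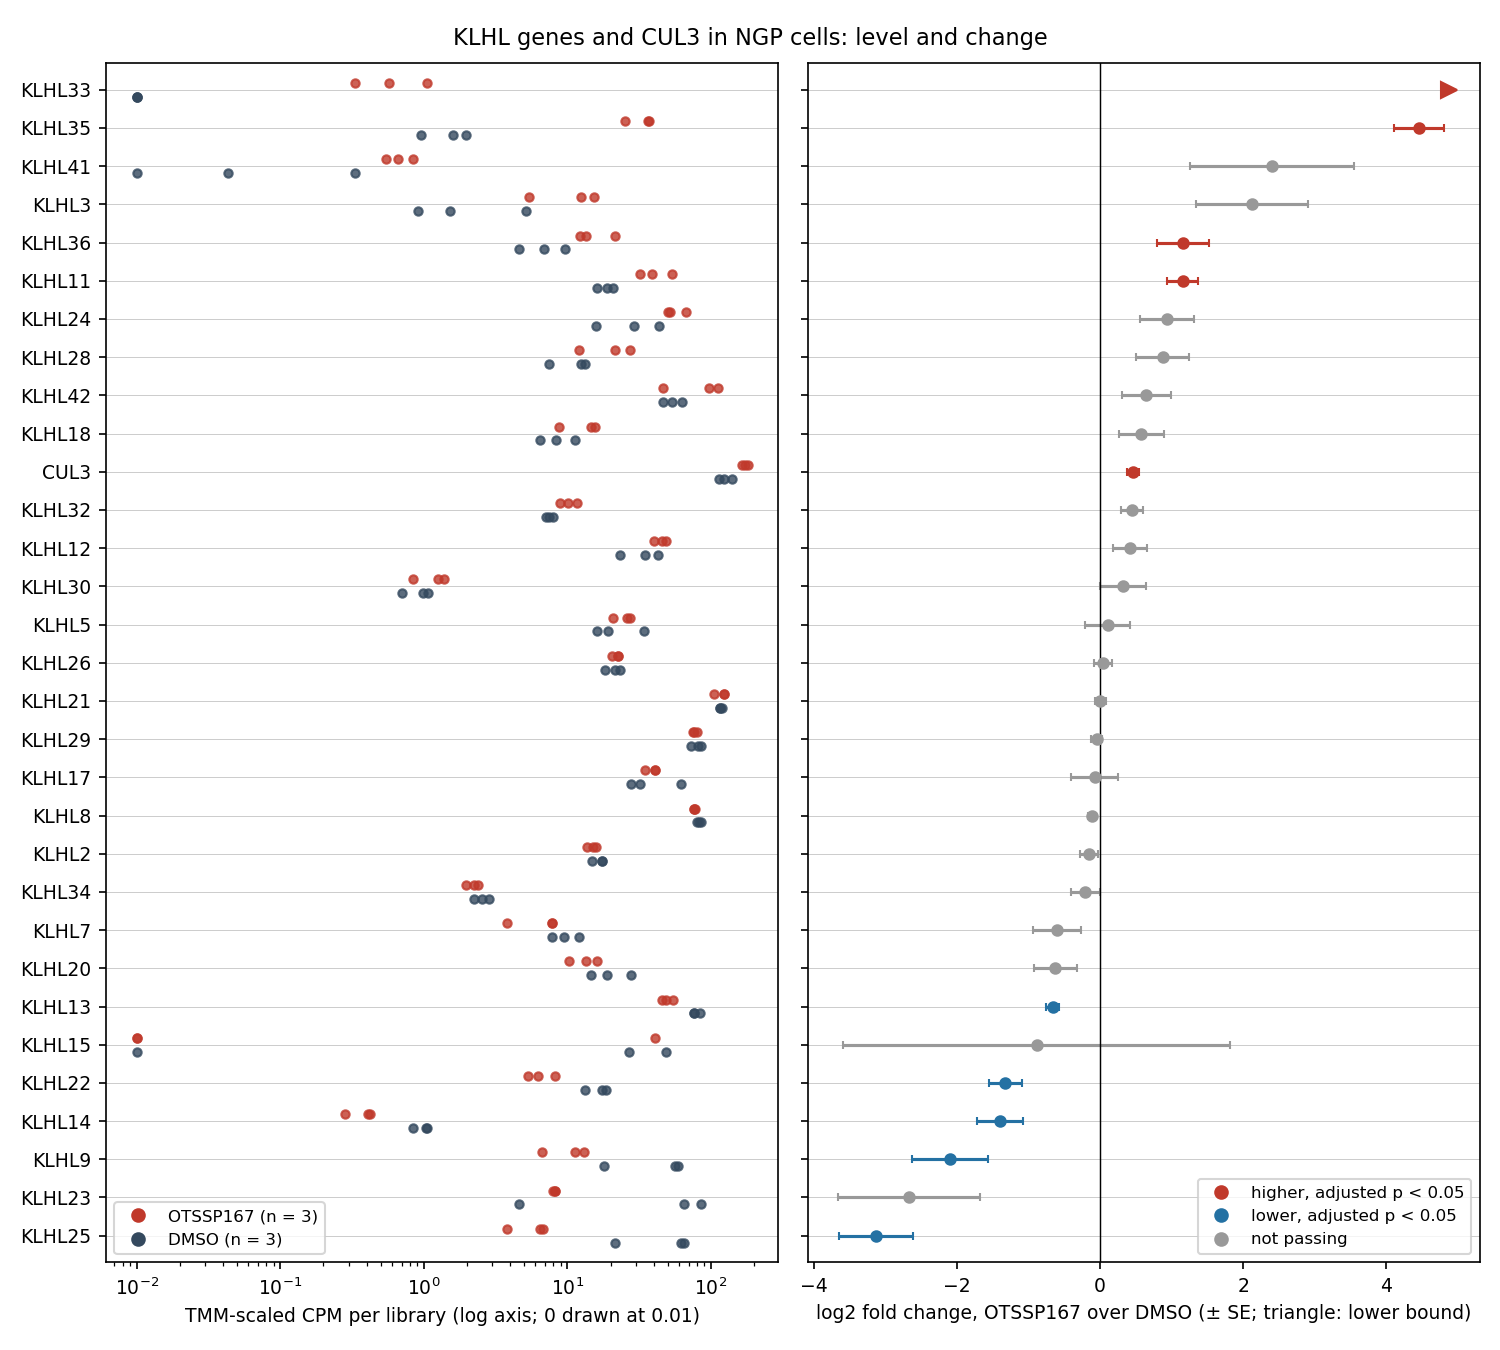
Level of each tested member in every library (left, CPM on a log axis, OTSSP167 above DMSO within a row) and its log2 fold change with standard error (right), ordered from the largest rise to the largest fall; KLHL33 is drawn at its lower bound because all DMSO libraries are at 0. The 10 coloured points passed edgeR's test, and KLHL15, with 3 libraries at 0, has the widest error.

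Libraries of 1 group often differed for these genes. In 15 of the 31 tested members (48.4%) the highest library of a group was over 2 times the lowest, against 35.3% of all tested genes, and 5 of the 10 members that changed are among these 15. KLHL15, an adaptor for a regulatory subunit of the phosphatase PP2A, for the DNA repair factor CtIP and for doublecortin, was the extreme case. It had 0, 2322 and 0 counts in the OTSSP167 libraries, against 0, 1280 and 2241 counts in the DMSO libraries. A count of 0 beside at least 1000 counts in the same group was found for 2 of the 14402 tested genes, KLHL15 and the readthrough locus SENP3-EIF4A1, so the KLHL15 values cannot be compared between groups (log2 fold change -0.88, SE 2.71).

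CUL3, the scaffold itself (chromosome 2, 224470150 to 224585397), rose modestly. It stood at 173.8, 166.1 and 180.3 CPM in the OTSSP167 libraries, against 123.4, 113.4 and 140.4 CPM in the DMSO libraries. Every OTSSP167 library was above every DMSO library, and the rise was 1.38-fold (log2 fold change 0.46, SE 0.09, edgeR's adjusted p = 0.00917). It did not pass the test against 1.5-fold.

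Per kilobase of annotated exon, the scale on which genes can be compared, CUL3 and KLHL21 stood at the top of the DMSO libraries with 16.7 and 17.1 CPM per kb. KLHL29 (15.1), KLHL17 (14.4), KLHL8 (14.1) and KLHL25 (13.2 CPM per kb) followed closely in DMSO, and neighbours in this order were not tested against each other. In the OTSSP167 libraries CUL3 reached 23.0 CPM per kb, followed by KLHL11 with 17.4, KLHL21 with 17.2 and KLHL35 with 17.1. KLHL35 thus moved to place 4 of the 31 tested members in OTSSP167, against place 25 in DMSO, and KLHL25 moved to place 24, against place 6. Which transcript was present is not known, so levels per kb are approximate. KLHL21 overlaps PHF13 on the opposite strand, and the strand setting of the counting is not given, so its reads may include those of PHF13.

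Of 6 members with known roles in mitosis, 3 fell and 0 rose, where 22.3% of all tested genes fell and 23.8% rose; this grouping by role was made after the values had been seen. KLHL9 and KLHL13, close relatives which together carry CUL3 to Aurora B kinase on mitotic chromosomes, both fell. KLHL13 (chromosome X, 117897813 to 118117340) stood at 54.7, 48.6 and 45.6 CPM in the OTSSP167 libraries, against 76.0, 83.8 and 75.8 CPM in the DMSO libraries. The groups were well apart, with a log2 fold change of -0.66 (SE 0.09, edgeR's adjusted p = 0.00311). KLHL9 (chromosome 9, 21329671 to 21335380) stood at 13.1, 11.3 and 6.66 CPM with OTSSP167, against 58.6, 55.8 and 18.1 CPM with DMSO. DMSO replicate 3 lay far below the other DMSO libraries but still above every OTSSP167 library. The log2 fold change of KLHL9 was -2.10 (SE 0.53, edgeR's adjusted p = 0.0236). Its call was lost in limma-voom (adjusted p = 0.0546) and, still in edgeR, on leaving out OTSSP167 replicate 1, 2 or 3 or without DMSO replicate 1 or 2 (adjusted p = 0.0501, 0.0652, 0.0667, 0.0659 and 0.0662), and over all settings the adjusted p ran between 0.000249 and 0.0667.

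KLHL21, a further adaptor for Aurora B that acts at the spindle midzone, was level. It stood at 104.5, 123.9 and 124.0 CPM with OTSSP167, against 116.3, 115.7 and 119.0 CPM with DMSO (log2 fold change 0.01, SE 0.08, edgeR's adjusted p = 0.954), and the DMSO values lay inside the OTSSP167 range. KLHL22 (chromosome 22, 20441519 to 20495883), which acts on the mitotic kinase PLK1 and on DEPDC5, a brake on mTORC1, fell. Its libraries stood at 8.22, 6.29 and 5.30 CPM with OTSSP167, against 13.4, 17.5 and 18.7 CPM with DMSO. The groups did not overlap, and the fall was 2.50-fold (log2 fold change -1.32, SE 0.23, edgeR's adjusted p = 0.00628). KLHL18, an adaptor for Aurora A, averaged 13.02 ± 3.67 CPM with OTSSP167 and 8.73 ± 2.45 CPM with DMSO and did not pass (edgeR's adjusted p = 0.188). KLHL42, an adaptor for the microtubule-severing enzyme katanin, averaged 85.2 ± 34.3 CPM with OTSSP167 and 54.5 ± 8.37 CPM with DMSO (edgeR's adjusted p = 0.180). KLHL42 passed without OTSSP167 replicate 3 (log2 fold change 0.94, adjusted p = 0.0135; between 0.0135 and 0.421 over all settings).

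KLHL25 had the largest fall of the members that passed. It is an adaptor for the lipogenic enzyme ACLY and for the translation repressor 4E-BP1 (chromosome 15, 85759323 to 85795030). It stood at 6.41, 6.75 and 3.79 CPM with OTSSP167, against 21.4, 62.4 and 65.1 CPM with DMSO. DMSO replicate 1 lay well below the other DMSO libraries but above every OTSSP167 library. The fall was 8.77-fold (log2 fold change -3.13, SE 0.52, edgeR's adjusted p = 0.00571). It passed in every alternative run, with log2 fold changes of -3.50 to -2.91.

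KLHL14, which binds torsinA, was scarce and fell further: 0.281, 0.421 and 0.409 CPM with OTSSP167, against 1.04, 1.06 and 0.842 CPM with DMSO. These values rest on 11 to 24 counts per OTSSP167 library and 39 to 53 counts per DMSO library, without overlap (log2 fold change -1.39, SE 0.32, edgeR's adjusted p = 0.0165). The call was lost without DMSO replicate 1 or 2 (adjusted p = 0.0514 and 0.0543), and over all settings the adjusted p ran between 0.000521 and 0.0804.

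The largest rise with a measured baseline was that of KLHL35 (chromosome 11, 75422394 to 75430629). It stood at 25.4, 36.7 and 37.2 CPM with OTSSP167, against 0.957, 1.97 and 1.60 CPM with DMSO. All OTSSP167 libraries were at least an order of magnitude above all DMSO libraries, and the rise was 21.9-fold (log2 fold change 4.46, SE 0.35, edgeR's adjusted p = 0.000438). It held in every alternative that tested it, with log2 fold changes of 4.21 to 4.69. KLHL35 lies end to end with RPS3, a gene of the small ribosomal subunit on the opposite strand, with a gap of 113 bp between their 3′ ends. RPS3 averaged 2110 ± 26.1 CPM with OTSSP167 and 1498 ± 35.1 CPM with DMSO (log2 fold change 0.49, SE 0.02, edgeR's adjusted p = 6.62e-05). The strand setting of the counting is not given, so KLHL35 transcripts and RNA that runs past the end of RPS3 cannot be told apart. GDPD5, the next gene upstream of KLHL35 on its own strand at 4010 bp, averaged 6.74 ± 1.37 CPM with OTSSP167 and 7.34 ± 1.18 CPM with DMSO (edgeR's adjusted p = 0.681).

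KLHL33 (chromosome 14, 20425852 to 20436158) had no count in any DMSO library. It had 41, 19 and 21 counts in the OTSSP167 libraries, or 1.05, 0.333 and 0.573 CPM, against 0, 0 and 0 counts in the DMSO libraries. Against a floor of 3 counts over the DMSO group (0.0207 CPM), it was at least 29.4-fold higher with OTSSP167. It reached the level needed for testing in 3 OTSSP167 libraries and 0 DMSO libraries, so it entered the test only through the group in which it is high, and its call is no support for the rise. Its level remained low, at 30th of the 31 tested members per kb.

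KLHL11, whose protein is an autoantigen in paraneoplastic encephalitis (chromosome 17, 41853545 to 41865431), rose 2.23-fold. It stood at 32.2, 38.9 and 53.3 CPM with OTSSP167, against 16.2, 20.7 and 19.0 CPM with DMSO. The lowest OTSSP167 library was above the highest DMSO library (log2 fold change 1.16, SE 0.22, edgeR's adjusted p = 0.00908). KLHL11 begins 1476 bp downstream of ACLY on the same strand, and ACLY moved the other way, to 336.3 ± 8.77 CPM with OTSSP167 against 1022 ± 9.42 CPM with DMSO. KLHL36 (chromosome 16, 84648525 to 84667686) stood at 13.5, 12.2 and 21.7 CPM with OTSSP167, against 6.86, 9.65 and 4.62 CPM with DMSO. Its groups did not overlap, but it passed only narrowly (log2 fold change 1.16, SE 0.36, edgeR's adjusted p = 0.0461). The KLHL36 call was lost without the low-count filter (adjusted p = 0.0524) and without OTSSP167 replicate 1, 2 or 3 or DMSO replicate 1 or 3 (0.0754, 0.0592, 0.113, 0.122 and 0.106), and over all settings the adjusted p ran between 0.00571 and 0.133.

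**Figure D2:**
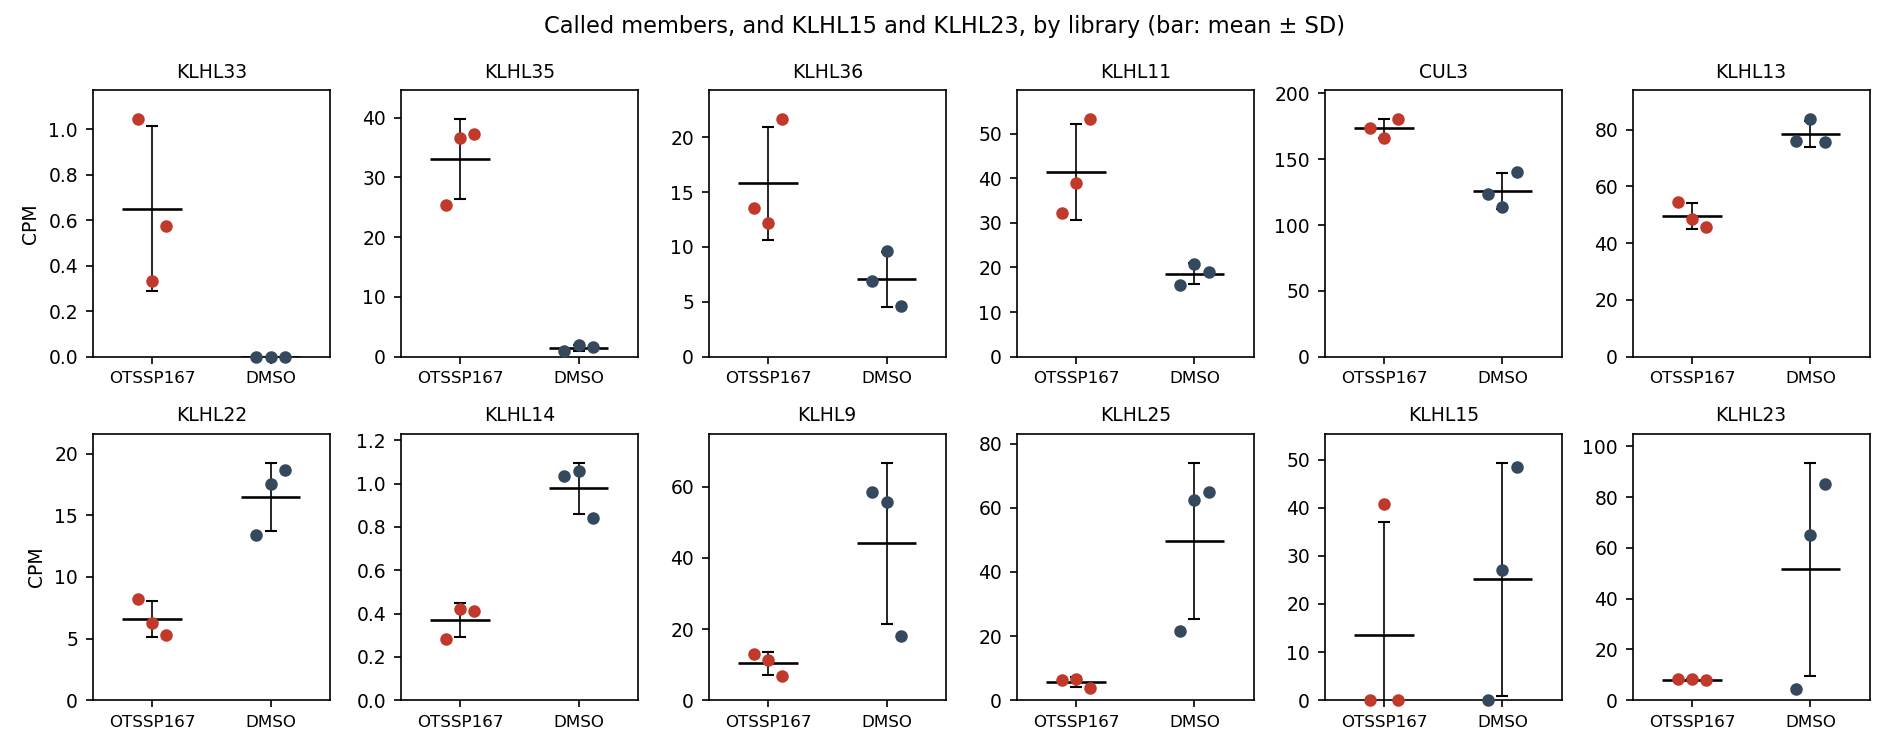
CPM in each library for the 10 members that passed edgeR's test and for KLHL15 and KLHL23, with OTSSP167 left of DMSO in every panel, mean and SD as bars, and each vertical axis starting at 0 on its own scale. The groups stand apart in the 10 members that passed; in KLHL15 and KLHL23 single libraries lie far from the rest of their group.

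KLHL23 stands beside these as a member whose result hung on 1 library; it was singled out after its values were seen. It stood at 8.19, 8.24 and 7.94 CPM with OTSSP167, against 4.57, 64.9 and 85.3 CPM with DMSO. The OTSSP167 libraries were nearly equal, while DMSO replicate 1 was below them and the other DMSO libraries far above (log2 fold change -2.67, SE 0.99, edgeR's adjusted p = 0.0761). Without DMSO replicate 1 it passed (log2 fold change -3.21, adjusted p = 0.000657), and it also passed with DESeq2 (adjusted p = 0.00651), and over all settings the adjusted p ran between 0.000657 and 0.361. KLHL23 overlaps PHOSPHO2 on the same strand, so reads of the pair may be divided in an unknown way; PHOSPHO2 averaged 6.32 ± 1.58 CPM with OTSSP167 and 12.0 ± 1.66 CPM with DMSO (edgeR's adjusted p = 0.0213).

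The adaptors of the WNK kinases did not pass. KLHL3, whose loss in the kidney raises WNK activity and blood pressure, stood at 12.5, 5.40 and 15.3 CPM with OTSSP167, against 5.16, 0.910 and 1.51 CPM with DMSO. Its groups were separate only by the small gap between the lowest OTSSP167 and the highest DMSO library (log2 fold change 2.13, SE 0.78, edgeR's adjusted p = 0.0733). It passed with DESeq2 (adjusted p = 0.00995) and without DMSO replicate 1 (log2 fold change 3.19, adjusted p = 0.0196), and over all settings the adjusted p ran between 0.00995 and 0.184. Its paralogue KLHL2 averaged 14.9 ± 1.06 CPM with OTSSP167 and 16.5 ± 1.46 CPM with DMSO (log2 fold change -0.15, SE 0.13, edgeR's adjusted p = 0.359).

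KLHL12, KLHL20 and KLHL7 were grouped under secretion, autophagy and signalling, also after the values had been seen. Of these, 0 of 3 passed, where 46.1% of all tested genes changed. KLHL12, which acts on the vesicle coat protein SEC31 and on Dishevelled, averaged 44.9 ± 4.15 CPM with OTSSP167 and 33.6 ± 9.81 CPM with DMSO (edgeR's adjusted p = 0.202). KLHL20, an adaptor for DAPK1, PML and ULK1, averaged 13.3 ± 2.91 CPM with OTSSP167 and 20.4 ± 6.66 CPM with DMSO (edgeR's adjusted p = 0.141). KLHL7, a gene of inherited retinitis pigmentosa, averaged 6.47 ± 2.31 CPM with OTSSP167 and 9.80 ± 2.12 CPM with DMSO (edgeR's adjusted p = 0.207). KLHL24, an adaptor for keratin 14 in skin, stood at 66.9, 50.3 and 52.2 CPM with OTSSP167, against 29.2, 43.6 and 15.8 CPM with DMSO. Its groups did not overlap, and it did not pass (log2 fold change 0.93, SE 0.38, edgeR's adjusted p = 0.0968). KLHL24 passed with DESeq2 (adjusted p = 0.0384) and without DMSO replicate 2 (log2 fold change 1.32, adjusted p = 0.0386), and over all settings the adjusted p ran between 0.0384 and 0.218.

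Several abundant members had log2 fold changes near 0. KLHL8, the relative of an adaptor for the synaptic protein rapsyn in C. elegans, stood at 75.8, 77.9 and 76.8 CPM with OTSSP167, against 82.7, 79.5 and 85.7 CPM with DMSO (log2 fold change -0.11, SE 0.06, edgeR's adjusted p = 0.174). KLHL29 stood at 76.3, 75.0 and 80.4 CPM with OTSSP167, against 85.4, 81.4 and 72.4 CPM with DMSO (log2 fold change -0.05, SE 0.08, edgeR's adjusted p = 0.671). KLHL26 had a log2 fold change of 0.05 (SE 0.12) and KLHL17, an actin-binding protein of synapses in rat, one of -0.07 (SE 0.33). In all, 8 tested members had log2 fold changes within 0.25 of 0; a p that misses the threshold does not show that their levels were equal. KLHL5, KLHL28, KLHL30, KLHL32 and KLHL34 did not pass either, with log2 fold changes of -0.20 for KLHL34 to 0.87 for KLHL28. KLHL32 passed in DESeq2 (adjusted p = 0.00689), with upper-quartile scaling (0.0352) and among genes of at least 1 CPM in each library (0.0359), and over all settings the adjusted p ran between 0.00689 and 0.166. KLHL28 passed without OTSSP167 replicate 2 (log2 fold change 1.14, adjusted p = 0.0427), and over all settings the adjusted p ran between 0.0427 and 0.269.

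The members known from other tissues were absent or near the limit of detection. KLHL1, a neuronal actin-binding protein, KLHL4, KLHL6 of B lymphocytes and KLHL38 had 0 counts in all 6 libraries. KLHL10, a gene of sperm formation, had at most 8 counts in a library. Of the muscle members, KLHL40 had 3 counts in 1 OTSSP167 library and KLHL31 had 13 counts in 1 OTSSP167 library, and neither had a count with DMSO. KLHL41, whose loss causes nemaline myopathy, had 33, 38 and 20 counts with OTSSP167, against 17, 0 and 2 counts with DMSO. The KLHL41 groups did not overlap by a small margin and it did not pass (edgeR's adjusted p = 0.142). It passed in limma-voom (adjusted p = 0.0410) and without DMSO replicate 1 (adjusted p = 0.0223), and over all settings the adjusted p ran between 0.0223 and 0.299.

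For several adaptors the gene of a reported target was also measured. Transcript levels say nothing of the marked protein, and these targets were listed with earlier results of the data known. AURKB, the target of KLHL9, KLHL13 and KLHL21, rose to 271.5 ± 9.83 CPM with OTSSP167, against 143.0 ± 1.84 CPM with DMSO (edgeR's adjusted p = 6.24e-05), while KLHL9 and KLHL13 fell. PLK1 and DEPDC5, targets of KLHL22, had log2 fold changes of 0.03 (SE 0.06) and -0.07 (SE 0.23) beside -1.32 for KLHL22. ACLY and EIF4EBP1, which encodes 4E-BP1, fell like their adaptor KLHL25, by 1.60 and 0.22 on the log2 scale (edgeR's adjusted p = 5.74e-06 and 0.00389). WNK4, a target of KLHL3, rose to 16.0 ± 0.679 CPM with OTSSP167, against 0.678 ± 0.248 CPM with DMSO (log2 fold change 4.56, SE 0.32, edgeR's adjusted p = 0.000296). WNK1, paired with KLHL2, did not pass (log2 fold change -0.12, SE 0.42, edgeR's adjusted p = 0.835). WNK3 rose by 0.96 (SE 0.18, edgeR's adjusted p = 0.00883). The next gene downstream of WNK4 on its strand, CNTD1, rose too (log2 fold change 2.26, edgeR's adjusted p = 0.00104). VPS25, 1078 bp upstream on that strand, fell (-0.52, edgeR's adjusted p = 0.00124). COA3 overlaps WNK4 on the opposite strand, so reads may be shared, and COA3 fell (-0.76, edgeR's adjusted p = 0.00198). DVL1, a Dishevelled gene whose product KLHL12 acts on, fell by 1.10 in log2 units (SE 0.18, edgeR's adjusted p = 0.00567). DCX, the doublecortin gene tied to KLHL15, fell by 2.16 (SE 0.54, edgeR's adjusted p = 0.0226), and PML, tied to KLHL20, rose by 0.50 (SE 0.09, edgeR's adjusted p = 0.00712). Measured partners of these adaptors that did not pass include SEC31A of KLHL12 (log2 fold change -0.29, SE 0.12), DAPK1 and ULK1 of KLHL20 (0.03, SE 0.06, and 0.19, SE 0.15), and PPP2R5B and RBBP8, the CtIP gene, of KLHL15 (-0.30, SE 1.35, and 0.46, SE 0.16). Of 33 tested genes on the target list, 8 rose and 5 fell (39.4% changed, against 46.1% of all genes; RAPSN was tested only through the OTSSP167 libraries), with a median log2 fold change of 0.12. By smallest p, AURKB and WNK4 lead the rises, and ACLY and the Dishevelled gene DVL3 (log2 fold change -0.43, SE 0.05, edgeR's adjusted p = 0.00116) lead the falls.

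**Figure D3:**
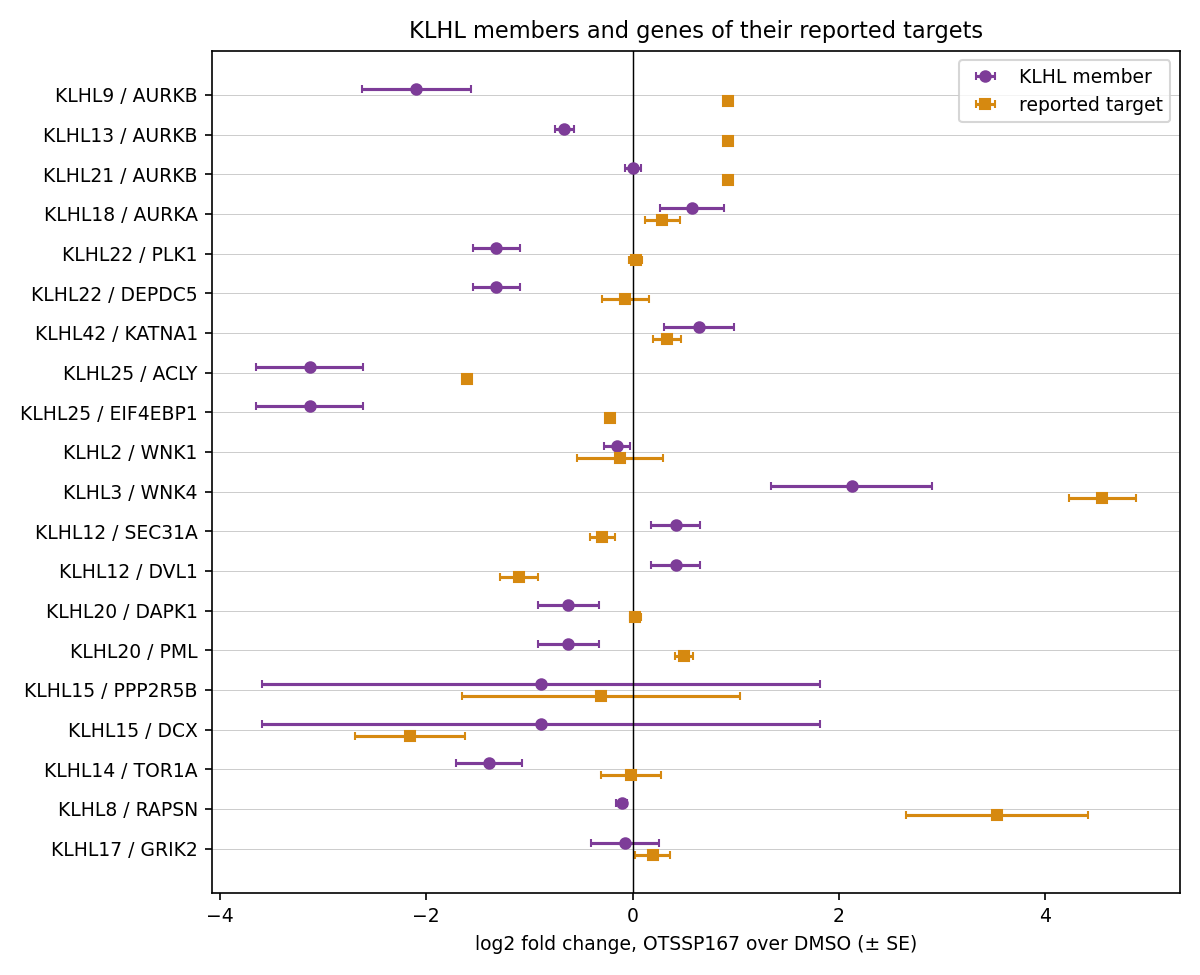
Log2 fold change with standard error of KLHL members (circles) and of the gene of a reported target (squares), 1 pair per row; a member or target with several partners appears in several rows. AURKB is higher where KLHL9 and KLHL13 are lower, and ACLY is lower together with KLHL25.

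Among BTB-kelch genes that carry other names, most of those that passed were higher. Of 15 tested, 7 rose, 1 fell and 7 did not pass, so 53.3% changed, against 46.1% of all tested genes (23.8% higher and 22.3% lower). The median log2 fold change was 0.36, against 0.01 over all genes. KBTBD7, an adaptor for the RAC1 activator TIAM1 together with KBTBD6, averaged 137.9 ± 2.35 CPM with OTSSP167 and 78.7 ± 3.54 CPM with DMSO (log2 fold change 0.81, SE 0.05, edgeR's adjusted p = 0.000215). KEAP1, the sensor that keeps the stress factor NRF2 low, rose by 0.39 (SE 0.05, edgeR's adjusted p = 0.00221), and KBTBD4, KBTBD6, KBTBD8 and IVNS1ABP also rose; these 5 were picked after their values were seen. KBTBD11 fell by 2.39 on the log2 scale, with 8.63, 4.91 and 6.36 CPM with OTSSP167 against 58.4, 8.29 and 37.4 CPM with DMSO (edgeR's adjusted p = 0.0427). Its groups overlapped at DMSO replicate 2, and it did not pass in limma-voom or without OTSSP167 replicate 1, 2 or 3 or DMSO replicate 1 or 3 (adjusted p = 0.132, 0.0838, 0.120, 0.112, 0.107 and 0.0946), and over all settings the adjusted p ran between 0.00154 and 0.132.

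The BTB adaptors without kelch repeats, such as SPOP, the KCTD and the RHOBTB proteins, were counted in the same way. Of 26 tested, 11 rose, 1 fell and 14 did not pass (46.2% changed, against 46.1% of all genes; median log2 fold change 0.30). BTBD2 averaged 332.7 ± 0.489 CPM with OTSSP167 and 198.8 ± 2.66 CPM with DMSO (log2 fold change 0.74, SE 0.03, edgeR's adjusted p = 3.9e-05), and BTBD7 rose by 0.98 (SE 0.05, edgeR's adjusted p = 0.000113). RHOBTB3 fell to 122.2 ± 21.9 CPM with OTSSP167, against 303.5 ± 25.4 CPM with DMSO (log2 fold change -1.31, SE 0.14, edgeR's adjusted p = 0.00134).

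The shared machinery of the ligase was counted next. Of 26 tested genes of the CUL3 core, NEDD8 conjugation and the COP9 signalosome, which removes NEDD8, 5 rose, 7 fell and 14 did not pass (46.2% changed, near the 46.1% of all genes; median log2 fold change 0.01). RBX1, the RING partner of CUL3, fell while CUL3 rose: it averaged 54.9 ± 1.69 CPM with OTSSP167 and 82.8 ± 2.55 CPM with DMSO (log2 fold change -0.59, SE 0.06, edgeR's adjusted p = 0.000977). DCUN1D3, a helper of cullin neddylation, averaged 44.7 ± 2.92 CPM with OTSSP167 and 13.9 ± 1.04 CPM with DMSO (log2 fold change 1.68, SE 0.11, edgeR's adjusted p = 0.000195). Among signalosome genes, COPS2 rose by 0.76 (SE 0.05, edgeR's adjusted p = 0.000189) and COPS7B fell by 1.03 (SE 0.10, edgeR's adjusted p = 0.000717).

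Of the 7 other cullins, 1 passed in edgeR, CUL7 (14.3% changed, against 46.1% of all tested genes). This gene reached the level needed for testing in the OTSSP167 libraries only, so its call is no support. CUL7 had 965 counts over the OTSSP167 libraries and 1 count over the DMSO libraries. It stood at 3.98, 10.5 and 5.79 CPM with OTSSP167, against 0, 0 and 0.0216 CPM with DMSO. CUL7 begins 83 bp downstream of MRPL2 on the same strand and overlaps KLC4 on the other, so its reads may be shared; MRPL2 averaged 17.5 ± 7.18 CPM with OTSSP167 and 43.0 ± 2.14 CPM with DMSO. CUL1, CUL2, CUL4A, CUL4B, CUL5 and CUL9 did not pass, with log2 fold changes of -0.81 for CUL9 to 0.32 for CUL5.

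**Figure D4:**
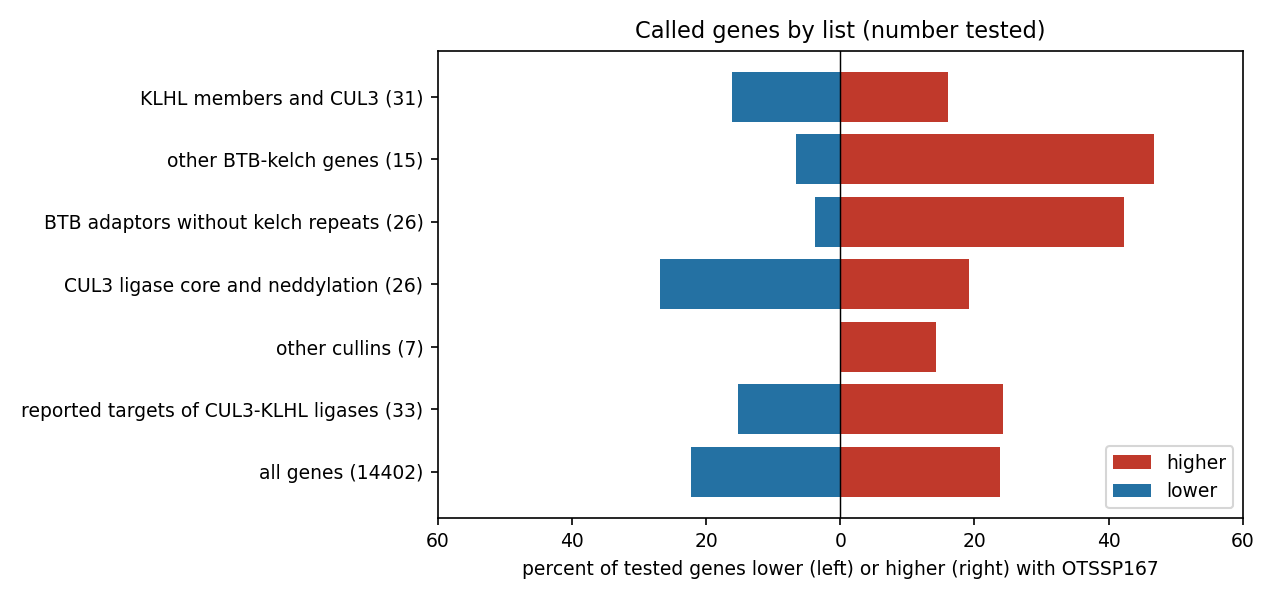
Percent of the tested genes of each list that were higher (right) or lower (left) with OTSSP167 by edgeR's test, with the number tested in brackets and all genes at the bottom. The KLHL members and CUL3 have 16.1% on either side, and the other BTB-kelch genes have 46.7% higher and 6.67% lower.

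The genes beside the members that changed by over 2-fold were read from the same fit. KLHL22 and MED15, a Mediator subunit gene, start 29 bp apart on opposite strands and moved in opposite directions: MED15 averaged 158.4 ± 16.6 CPM with OTSSP167 and 69.2 ± 17.6 CPM with DMSO (log2 fold change 1.195, SE 0.20, edgeR's adjusted p = 0.0059). SCARF2, 3692 bp downstream of KLHL22 on the same strand, fell by 0.89 (SE 0.11, edgeR's adjusted p = 0.00168). KLHL9 lies among interferon genes, and IFNA5, 24358 bp downstream on its strand, averaged 0.958 ± 0.360 CPM with OTSSP167 and 0 in all DMSO libraries. TEP1, 12422 bp downstream of KLHL33 on its strand, rose by 0.65 (SE 0.15, edgeR's adjusted p = 0.0169), while OSGEP, upstream, had a log2 fold change of -0.11 (SE 0.24). Beside KLHL36, USP10 rose by 0.51 (SE 0.05) and COTL1 fell by 0.31 (SE 0.03; edgeR's adjusted p = 0.000667 and 0.000915). AKAP13, 9964 bp from KLHL25, did not pass (edgeR's adjusted p = 0.445), nor did GAREM1, 202186 bp from KLHL14 (adjusted p = 0.0512). The other neighbours, IFNA6, KLHL10, CCDC178 and AGBL1, had too few counts to be tested.

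**Figure D5:**
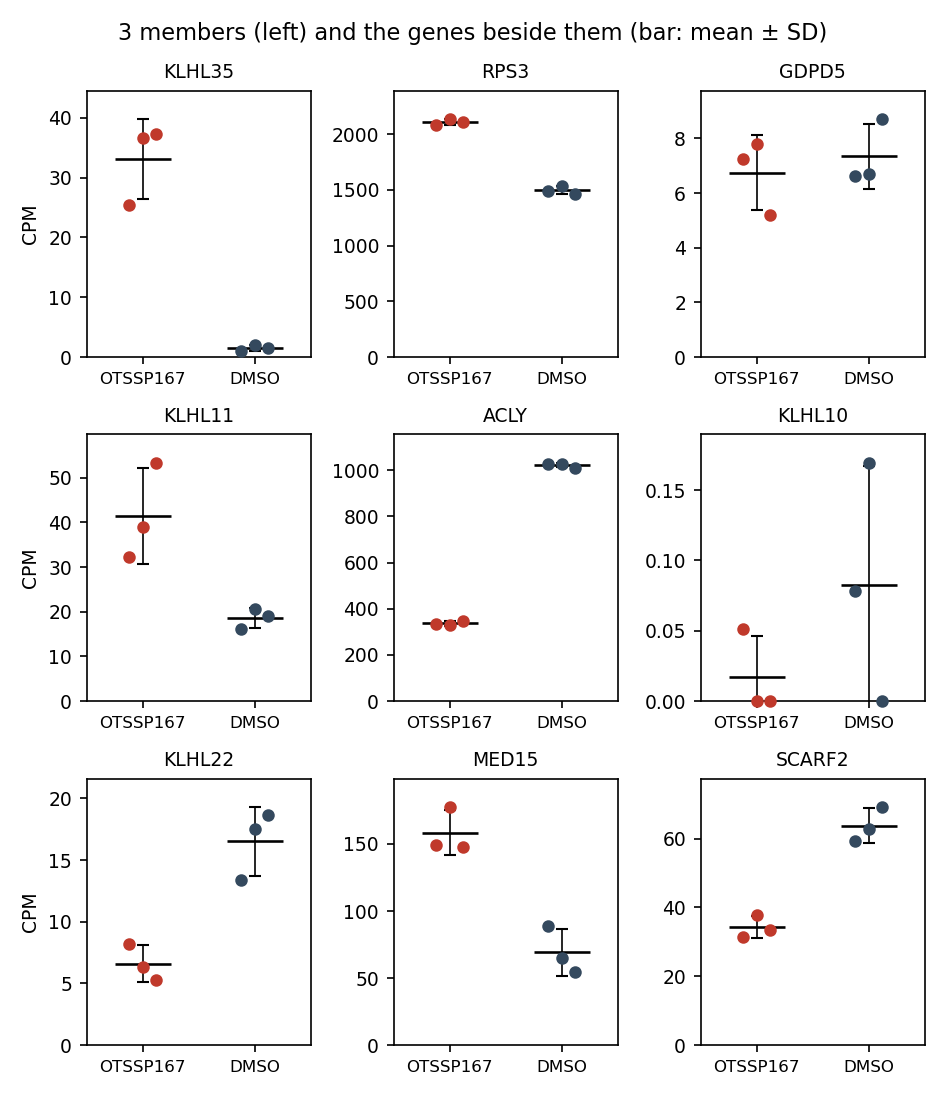
CPM by library for KLHL35, KLHL11 and KLHL22 (left column) and the genes on either side of each (middle and right columns), OTSSP167 left of DMSO, with mean and SD and each axis from 0 on its own scale. KLHL35 and RPS3 are both higher with OTSSP167 while GDPD5 overlaps; ACLY is lower where KLHL11 is higher, and MED15 is higher where KLHL22 is lower.

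Marker genes were read beside these results. Of all tested genes 46.1% changed, 23.8% higher and 22.3% lower, and the counts in these short lists stand beside those shares. Of 10 neuroblastoma markers 2 rose and 4 fell, and their sum was 6540 to 6640 CPM with OTSSP167 and 9580 to 9870 CPM with DMSO. MYCN carried most of that difference, with 4495 ± 17.85 CPM with OTSSP167 and 7544 ± 99.9 CPM with DMSO. Without MYCN the sums overlapped, at 2050 to 2130 CPM with OTSSP167 and 2090 to 2370 CPM with DMSO, and GATA3 was higher, at 819.6 ± 74.3 CPM with OTSSP167 against 353.6 ± 5.52 CPM with DMSO. Of 5 tested muscle markers 1 rose and 0 fell, with sums of 62.1 to 71.5 CPM with OTSSP167 and 48.6 to 54.6 CPM with DMSO; MYOD1 had at most 0.130 CPM. Of 2 tested glial markers 2 rose (sums 5.21 to 8.17 CPM with OTSSP167, 0 to 0.571 CPM with DMSO), with SOX10 at 0 in all 6 libraries; both of these and the muscle marker MYH3 were tested only through the OTSSP167 libraries. Of 3 tested fibroblast markers 2 fell (34.8 to 35.7 CPM with OTSSP167, 83.8 to 98.2 CPM with DMSO), with DCN at 0 in all 6 libraries. Of 3 tested immune markers 2 rose (19.5 to 22.3 CPM with OTSSP167, 1.76 to 2.05 CPM with DMSO), with PTPRC at most 0.306 CPM. The part of these markers in the results above was not tested.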

How the data were processed

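The authors deposited 1 table of raw counts per gene symbol for the 6 libraries (19863 rows). Per the submitters' processing notes, FastQC 0.11.2, HISAT2 2.1.0, StringTie 1.3.5 and the build GRCh38.p13 were used; the sources used here name no counting tool, annotation release, strand setting or filter. Per the labels' protocols, libraries were made with a SMARTer kit. Each column was tied to its sample by its name, with 0 columns of other samples; of 58 repeated symbols the larger row kept the name.

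The counts were fitted in edgeR 4.0.16 (R 4.3.3): filterByExpr, TMM, a robust quasi-likelihood F test of treatment over 14402 genes, and glmTreat against 1.5-fold. The SE is the absolute log2 fold change over the root of F. Counting error weighs most in genes of few counts. Alternatives were DESeq2 1.42.0, limma-voom (limma 3.58.1), other scalings and filters, a fold of 2, a replicate block and single libraries left out. Positions and exon lengths are from GENCODE release 29 (GRCh38), matched by symbol for 38 of 38 members, and upstream sequences from RefSeq (GRCh38.p14).

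Members and gene lists were chosen with earlier results of these data known. Named genes are CUL3, every member that passed, the 3 highest members by mean CPM that did not (KLHL21, KLHL8 and KLHL29), and from each pathway list the 2 of smallest p in each direction; other genes with values were named after these were seen, and some items the rule names are not reported here. Marker lists were neuroblastoma, muscle, glial, fibroblast and immune.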

Additional observations from a re-analysis of the deposited data

How the results depend on the processing

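Of the 10 members that passed, CUL3, KLHL11, KLHL13, KLHL22, KLHL25 and KLHL35 kept direction and call in every alternative that tested them, apart from the fold thresholds; KLHL9, KLHL14, KLHL33 and KLHL36 lost the call in at least 1. Of the 21 that did not pass, 7 passed in at least 1 alternative (KLHL3, KLHL23, KLHL24, KLHL28, KLHL32, KLHL41 and KLHL42). Members higher and lower (5 and 5) were 8 and 6 with DESeq2, 3 and 2 beyond 1.5-fold, and 4 to 6 and 3 to 5 with single libraries left out (3 lower without DMSO replicate 2). DESeq2 called more genes in general: 4341 higher and 3733 lower of 16609, against 3423 and 3215 of 14402 in the fit reported. Upper-quartile scaling moved the median log2 fold change of all genes to 0.11, against 0.01.

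Changed genes numbered 6638 over all genes, 2826 beyond 1.5-fold, 3160 with a fold of at least 2, and 5540 to 5870 with single libraries left out. Beyond 1.5-fold, 3 of the other BTB-kelch genes, 5 of the ligase core, 6 of the other BTB adaptors and 5 of the reported targets changed; with a fold of at least 2 these were 3, 4, 3 and 5. With single libraries left out they were 6 to 8, 10 to 11, 10 to 12 and 9 to 13. Of the other cullins, 1 changed in the fit reported, 4 with DESeq2, 2 with limma-voom, 2 with RLE size factors, 3 with upper-quartile scaling, 2 among genes of at least 1 CPM in each library, and 1 to 3 with single libraries left out.

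The log2 fold changes of 5 members near 0 turned sign. KLHL5 ranged over -0.102 to 0.480 with single libraries left out, and was negative without DMSO replicate 1 or 2. KLHL17 was 0.01 in limma-voom, 0.025 with upper-quartile scaling, 0.018 with the replicate block and -0.302 to 0.367 with single libraries left out. KLHL21 was -0.007 without a low-count filter and -0.036 to 0.083 with single libraries left out, negative without OTSSP167 replicate 2 or 3 or DMSO replicate 1 or 2. KLHL26 was -0.05 without DMSO replicate 2, and KLHL29 was 0.055 with upper-quartile scaling, 0.016 among genes of at least 1 CPM in each library and -0.126 to 0.001 with single libraries left out, positive without DMSO replicate 1. The causes were not tested.

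Replicate numbers are shared between the groups, but same-numbered libraries deviated together only weakly (r = 0.023, 0.041 and 0.011 across genes for numbers 1, 2 and 3), although each library correlated best with its own number. With the replicate block, 4 members were higher and 4 lower; KLHL3 passed (adjusted p = 0.0442), KLHL14, KLHL33 and KLHL36 did not (adjusted p = 0.0804, 0.0946 and 0.133), and 5 other BTB-kelch genes and 8 reported targets changed. Low counts limit KLHL10, KLHL31 and KLHL40 (at most 8, 13 and 3 per library), whose differences were not detectable at this depth.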
